A study of Mus musculus with 23 samples.

Results

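The chitinase family of the mouse is described here by 5 genes, Chia1, Chit1, Chi3l1, Chil3 and Chil4, which are 5 of the 41073 genes in the deposited count tables. They were taken by symbol. The members were selected on their measured levels in these same libraries, which were in view when the family was proposed, so their levels and differences are given as a description, with no test. RNA was sequenced in bulk from lung epithelial cells of wild-type C57BL/6 mice that carried the surface protein EpCAM, grown in transwells with air above the cell layer. The groups were cells on the day of isolation (3 libraries, untreated), cells on the day of airlift before any exposure (6 libraries, untreated), day 4 control cultures (7 libraries, untreated) and day 4 cultures treated with NTHi (7 libraries). NTHi, non-typeable Haemophilus influenzae, is a bacterium of the airways; its strain, dose and form are not given in the labels. Experiments A, B and C each held every group. The labels do not say that replicates came from separate animals or cultures, so the spread between libraries may be technical. The age of the mice is not given in the labels either.

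Chitin is a polymer of N-acetylglucosamine found in fungal walls, insects and crustaceans, and mammals do not make it. Chia1 (acidic mammalian chitinase) and Chit1 (chitotriosidase) cut chitin, while Chi3l1, Chil3 and Chil4 share the fold of these enzymes but have lost a catalytic residue. Acidic mammalian chitinase is known from secretory cells of the lung and the stomach, Chi3l1 is secreted by epithelial and myeloid cells in inflammation, Chil3 is best known from macrophages, and Chil4 is known from epithelium and myeloid cells in type 2 inflammation.

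The difference between enzymes and relatives can be read in the coding sequences. Active members of the family hold a motif that ends in a glutamate, the acid that protonates the bond to be cut. The 8 codons of that motif are shown because they divide the members. They are printed 5′ to 3′ from the longest reading frame of the GENCODE M21 transcripts, with the last codon in capitals.
Chia1: gatggactggacctggactggGAA
Chit1: gatggccttgaccttgactggGAG
Chi3l1: gatgggctggatctcgcctggCTC
Chil3: gatggcctcaacctggactggCAG
Chil4: gatggcctcaacctggactggCAG
The last codon encodes glutamate in Chia1 and Chit1, leucine in Chi3l1 and glutamine in Chil3 and Chil4. The printed bases of Chil3 and Chil4 were identical. In the order of the RefSeq annotation, Chil5, Chia1, Chil3, Chil4 and Chil6 are successive protein-coding genes on chromosome 3, and Chit1 and Chi3l1 (listed there as Chil1) are neighbours on chromosome 1.

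Libraries held between 32323375 and 39081663 counts. Levels are CPM, counts set on library totals scaled by the TMM method, and log2 differences come with their standard error. A gene was called where edgeR's quasi-likelihood test gave a Benjamini-Hochberg adjusted p below 0.05. Shares and medians of all genes are over the genes that passed the filter on low counts in that comparison. The 5 epithelial markers summed to between 3852 and 6875 CPM in every library, and none of the 5 was at 0 in all libraries of a group. Markers of alveolar type 2 cells (AT2, 10 genes) and of club and secretory cells (6 genes) summed to 82020 to 108300 and 169300 to 188500 CPM at isolation, against at most 4217 and 26990 CPM in any cultured library. Cells labelled as airway epithelium therefore held alveolar markers at isolation. The 4 leukocyte markers were above 0 in each group, with sums of 845 to 964 CPM at isolation, 424 to 502 at airlift, 315 to 668 in control and 94.1 to 321 with NTHi. With bulk RNA, fewer cells of a type and less RNA per cell cannot be told apart, which holds for each level below.

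Together the 5 genes took a median of 0.373% of a library's counts at isolation, 0.0704% at airlift, 0.255% in day 4 control and 0.373% with NTHi. The median shares of isolation and NTHi were alike. On the scaled levels they were not, with member sums of 4717 to 5344 CPM at isolation and 3007 to 4417 CPM with NTHi. The makeup behind the shares also differed. At isolation Chi3l1 held 59.9% to 64.1% of the members' counts, Chil3 29.8% to 33.7% and Chia1 5.73% to 6.26%. At airlift and in day 4 control Chil3 held 91.2% to 94.8% in each library. With NTHi Chi3l1 held 82.2% to 95.6%, and Chil3 4.28% to 17.8%. These are shares of counts, which also grow with the length of a transcript.

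**Figure D1:**
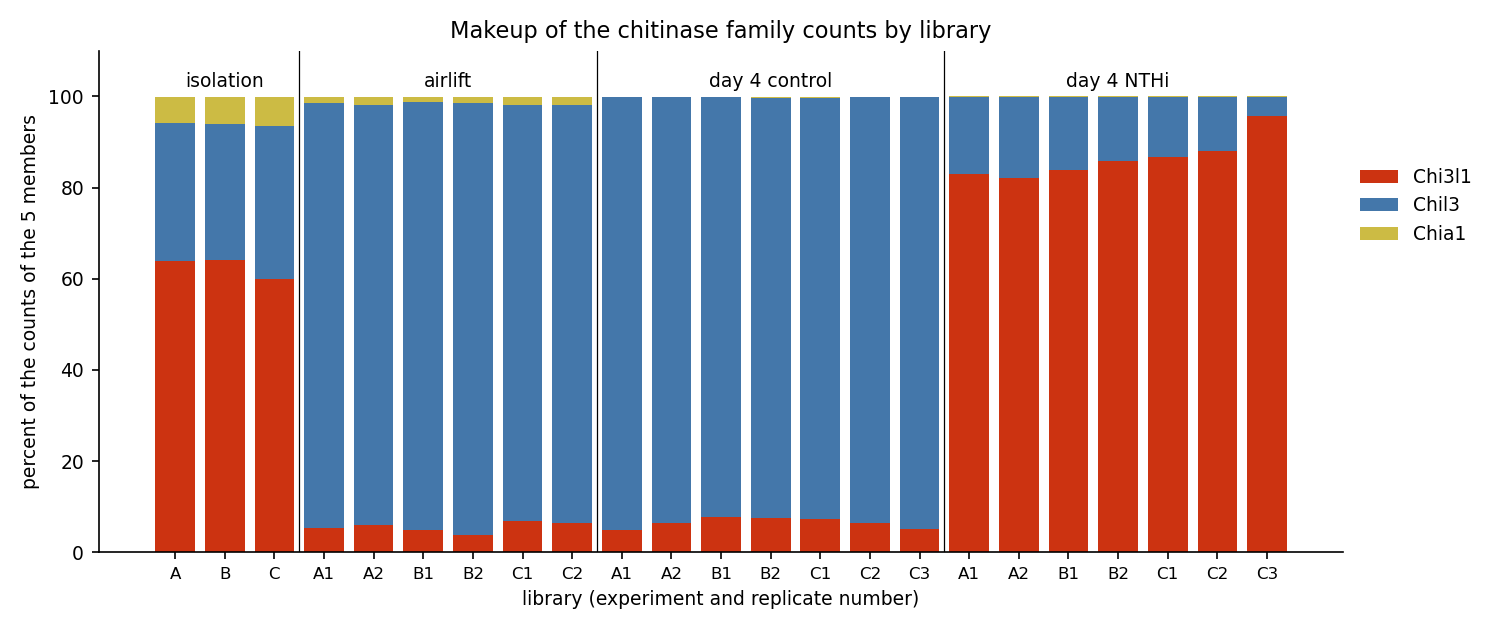
Share of the summed counts of the 5 members (vertical axis, percent) held by Chi3l1, Chil3 and Chia1 in each of the 23 libraries (horizontal axis, experiment and replicate number, in blocks by group); Chil4 and Chit1 are too few to be seen. Chil3 fills at least 91.2% of each bar at airlift and in day 4 control, and Chi3l1 at least 82.2% of each NTHi bar.

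Chia1, the member with chitin-cutting activity that was clearly present, was a gene of freshly isolated cells. It stood at 306.3, 294.1 and 295.4 CPM at isolation in experiments A, B and C, a mean of 298.6 ± 6.71 CPM (SD, n = 3). At airlift the lowest library was at 9.29, the median at 9.87 and the highest at 11.5 CPM. Day 4 control ran from 2.53 through a median of 3.42 to 4.41 CPM, and NTHi from 2.01 through 2.34 to 3.03 CPM. Isolation, airlift and control did not overlap each other, while control and NTHi did. The level at airlift was 29.3-fold below that at isolation, and the log2 difference was -4.86 ± 0.11. From airlift to control the log2 difference was -1.63 ± 0.10, and between NTHi and control it was -0.44 ± 0.14. The small NTHi difference was not alike in the experiments: the libraries overlapped in experiment A, where the means of log2(CPM + 0.5) differed by -0.08, and did not overlap in experiments B (-0.64) and C (-0.37). Fitted without experiment B it was -0.33 ± 0.17, and without experiment C -0.42 ± 0.17. The AT2 and club marker sums given above were also highest at isolation. So were the sums of the markers of goblet cells (333.8 to 602.2 CPM) and multiciliated cells (455.8 to 711.1 CPM). The same held for the leukocyte markers (844.7 to 964.4 CPM) and the epithelial markers (6340 to 6875 CPM). The part of these markers in the Chia1 levels was not tested.

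Chit1, the second active enzyme and a product of macrophages in other settings, was at the limit of detection. Its raw counts were 4, 9 and 8 in the isolation libraries, 2 to 14 at airlift, 0 to 6 in control and 0 to 2 with NTHi. It had no count in 3 control and 3 NTHi libraries, where 3 counts, the upper limit that a count of 0 allows, would be 0.0773 to 0.08 CPM. It did not pass the filter on low counts in any comparison and has no fitted difference. The airlift libraries overlapped those of isolation and of control. At this depth no order of the groups could be read. Isolation (0.146 to 0.318 CPM) did not overlap NTHi (0 to 0.0541 CPM), but on 4 to 9 against 0 to 2 counts. Both reads of a pair may be among these counts.

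Chi3l1, a secreted lectin that binds chitin without cutting it, was high at isolation, low in untreated culture and high again with NTHi. It stood at 3410, 3159 and 2827 CPM at isolation, a mean of 3132 ± 293 CPM (SD, n = 3). At airlift the lowest, median and highest libraries were at 33.6, 36.5 and 40.6 CPM, and in day 4 control at 96.9, 140.0 and 189.4 CPM. With NTHi they were at 2875, 3171 and 3663 CPM, a mean of 3183 ± 265 CPM (SD, n = 7). The 3 levels of airlift, control and NTHi did not overlap, and every isolation library but 1 lay within the NTHi range. The exception, that of experiment C, was lower than any NTHi library. The NTHi level was 22.4-fold that of control and 86.7-fold that of airlift.

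The fitted log2 difference of Chi3l1 between NTHi and control was 4.49 ± 0.12, and its size varied little with experiment, at 4.53 in A, 4.30 in B and 4.61 in C. The difference of airlift from isolation was -6.40 ± 0.13, and that of control from airlift was 1.95 ± 0.10. The difference of NTHi from isolation was 0.04 ± 0.11. That last value depends on the scaling, and with library totals alone it was 0.45 ± 0.10. AT2 markers summed to 1341 to 1584 CPM with NTHi, 3505 to 4217 in control, 1230 to 1335 at airlift and 82020 to 108300 at isolation. The 9 neutrophil markers summed to 1316 to 2047 CPM with NTHi, 340 to 725 in control, 187 to 291 at airlift and 170 to 520 at isolation. Ltf, which encodes lactoferrin, made up nearly all of that sum, at 1553 ± 235 CPM with NTHi and 535.2 ± 151 CPM in control (SD, n = 7 each). Mpo, Elane and Cxcr2 were at 0 in every NTHi library, Mpo also in every control library, and Ly6g, Ngp, Camp and Retnlg were at most 0.426 CPM in any library of these groups. Of the 3 neutrophil markers tested against control, Ltf was called higher, Cxcr2 lower, and Csf3r differed by 0.54 ± 0.28 and was not called. The part of either marker list in the Chi3l1 levels was not tested.

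The promoter of Chi3l1 is shown because this member had the largest NTHi difference. The 300 bases, from 250 before to 50 after the RefSeq start, lie at chr1:134181906-134182205 on the plus strand of GRCm38.p6, a build other than the GRCm39 of the count tables. Capitals mark a match to the NF-kB motif.
Chi3l1: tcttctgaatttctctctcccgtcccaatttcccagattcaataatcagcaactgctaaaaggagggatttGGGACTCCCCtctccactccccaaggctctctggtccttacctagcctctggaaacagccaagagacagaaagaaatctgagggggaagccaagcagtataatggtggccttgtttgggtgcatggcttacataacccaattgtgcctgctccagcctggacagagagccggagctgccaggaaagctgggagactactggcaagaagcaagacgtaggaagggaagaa
Both strands were searched for 6 motifs: NF-kB, STAT (TTCNNNGAA), STAT6 (TTCNNNNGAA), C/EBP (TTGCNNAA), AP-1 (TGANTCA) and the TATA box (TATAAA). The NF-kB match began 179 bases before the start, and the Chi3l1 window held none of the other letters. Among 32851 RefSeq promoters of the same length 4.51% held a match to the NF-kB motif, so the match is a description of this window and no more. NF-kB is a transcription factor of inflammatory signalling.

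**Figure D2:**
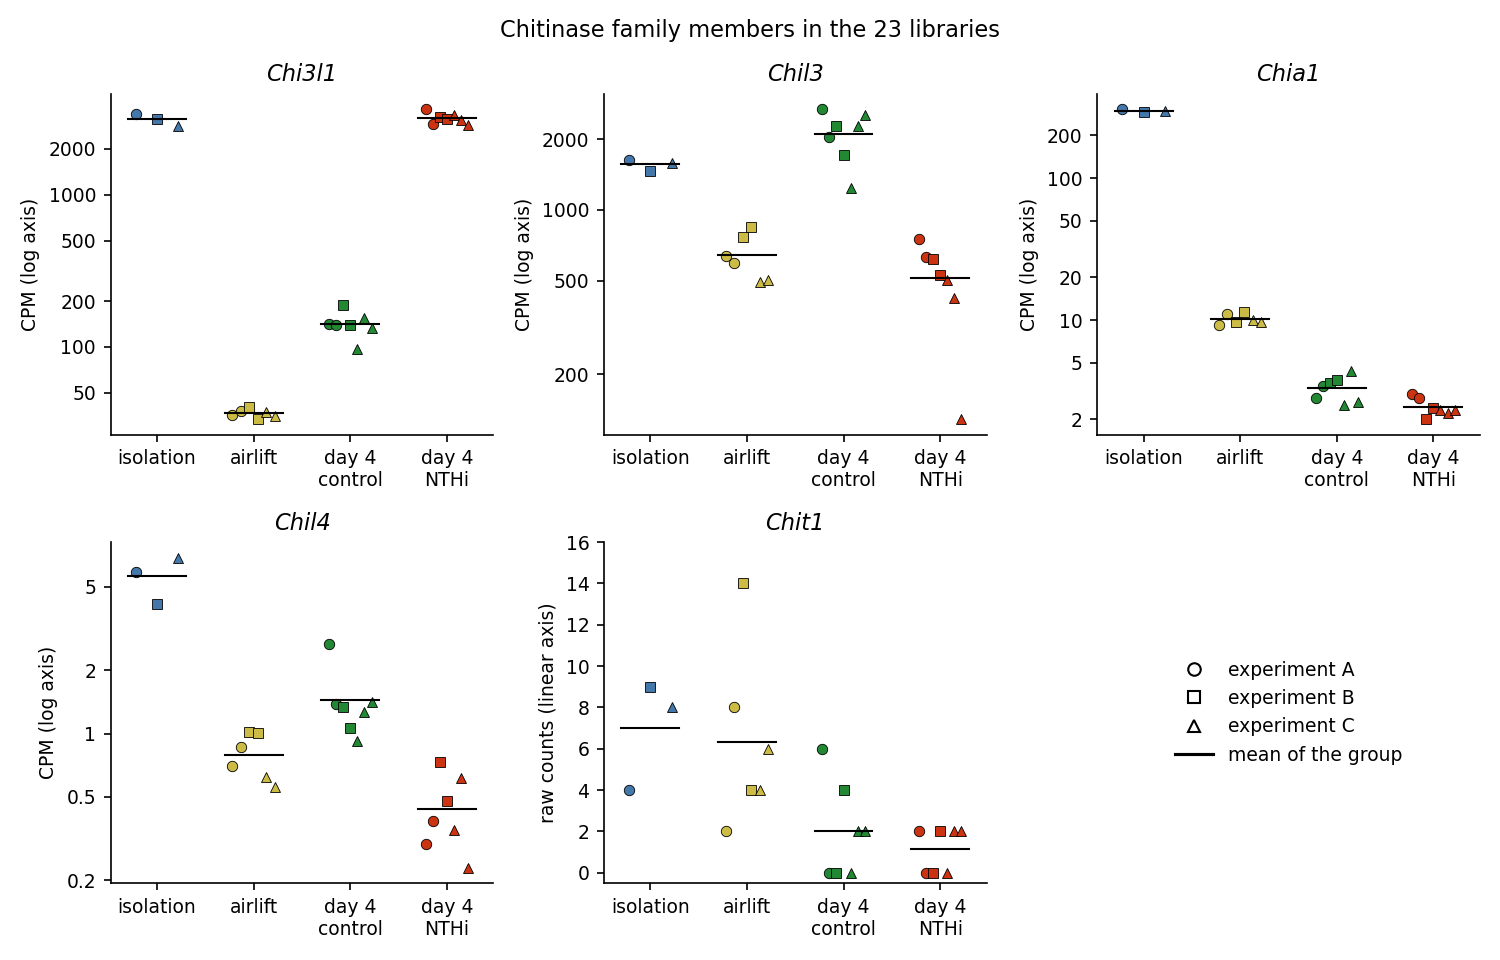
Level of each member in the 23 libraries, by group (horizontal axis), as CPM on a log axis for Chi3l1, Chil3, Chia1 and Chil4 and as raw counts on a linear axis for Chit1; points are libraries, symbols are experiments and lines are group means. The NTHi libraries of Chi3l1 (2875 to 3663 CPM) reach the isolation level, those of Chil3 (128.7 to 750.4 CPM) lie below each control library, and Chia1 is above 294 CPM only at isolation.

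Chil3, a secreted lectin without enzyme activity that is abundant in alveolar macrophages, was present in every group and moved in the opposite direction to Chi3l1 with NTHi. It stood at 1621, 1468 and 1587 CPM at isolation, a mean of 1559 ± 80.7 CPM (SD, n = 3). The lowest, median and highest libraries were at 495.3, 613.9 and 846.4 CPM at airlift, and at 1236, 2264 and 2683 CPM in day 4 control. With NTHi they were at 128.7, 525.5 and 750.4 CPM. Each NTHi library was below each control library, and each airlift library was below each isolation and control library. NTHi overlapped airlift, and control overlapped isolation, so Chil3 had 1 high and 1 low pair of groups. The mean with NTHi was 511.5 ± 199 CPM (SD, n = 7) against 2106 ± 495 CPM (SD, n = 7) in control, a log2 difference of -2.10 ± 0.26. The difference between airlift and isolation was -1.29 ± 0.18, and that between control and airlift was 1.74 ± 0.15.

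Most markers of macrophages were lower with NTHi, as Chil3 was, but they were split between airlift and control, where Chil3 was higher in control. The 11 macrophage markers, which do not include Chil3, summed to 984 to 1128 CPM at isolation, 757 to 868 at airlift, 749 to 1580 in control and 205 to 792 with NTHi. No macrophage marker was at 0 in all libraries of a group. Against control, 8 of these 11 were called lower with NTHi (20.4% of all genes were) and 1 higher (20.1%). The 1 called higher was Adgre1, at 1.19 ± 0.23. Of the 7 alveolar macrophage markers 6 were called lower, while Car4 differed by -0.09 and was not called. At airlift 7 of the 11 were called lower than at isolation (36.7% of all genes) and 1 higher (37.9%). In control 4 were called higher than at airlift (26.9%) and 6 lower (27.7%), with a median log2 difference of -0.49. The library with least Chil3 in control, replicate 1 of experiment C (1236 CPM), also had the smallest macrophage sum of its group, 748.5 CPM. The library with least Chil3 under NTHi, replicate 3 of experiment C (128.7 CPM), had the smallest sum of all, 204.9 CPM. These are also the control library and the NTHi library that lay farthest from the others of their groups. The measure was the median over genes of the absolute log2 gap to the mean of those others. Without both libraries the log2 difference of Chil3 between NTHi and control was -1.98. Within experiments it was -1.77 in A, -1.79 in B and -2.67 in C, as differences of means of log2(CPM + 0.5). Other libraries went the other way. The airlift library with most Chil3, replicate 2 of experiment B (846.4 CPM), had the smallest macrophage sum of its group, 757.3 CPM. The NTHi library with the largest sum, replicate 1 of experiment C (791.8 CPM), held 504.2 CPM of Chil3, below the group median of 525.5 CPM. The part of the macrophage markers in the Chil3 levels was not tested.

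**Figure D3:**
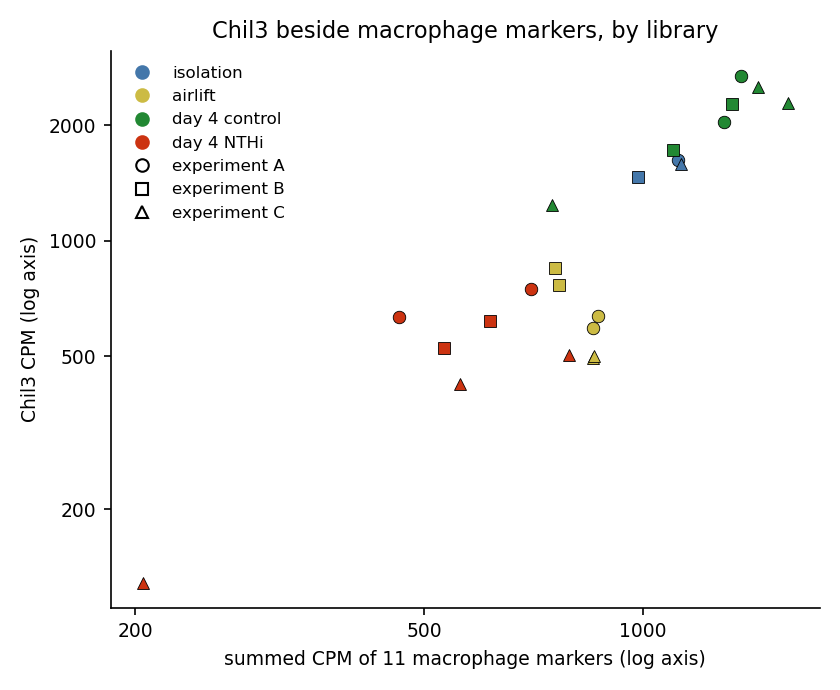
Chil3 level (vertical axis, CPM, log axis) beside the summed level of 11 macrophage markers (horizontal axis, CPM, log axis) in each of the 23 libraries, with colours for groups and symbols for experiments. The NTHi library at 128.7 CPM of Chil3 has the smallest marker sum, 204.9 CPM, while airlift libraries with sums of 757 to 868 CPM hold between 495 and 846 CPM of Chil3.

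Chil4 is the close copy of Chil3, and its level was a small fraction of that of Chil3. Per kilobase of coding sequence, the scale on which genes can be set side by side, Chil4 stood at 4.68, 0.655, 1.19 and 0.363 CPM per kb at isolation, airlift, control and NTHi. Chil3 stood at 1302, 534, 1759 and 427 CPM per kb in the same order. Chi3l1 led at isolation and with NTHi (2677 and 2721 CPM per kb), and Chil3 led at airlift and in control.

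By library, Chil4 was at 5.91, 4.16 and 6.90 CPM at isolation. Its lowest, median and highest libraries were at 0.555, 0.782 and 1.02 CPM at airlift, at 0.921, 1.35 and 2.68 CPM in control, and at 0.230, 0.381 and 0.731 CPM with NTHi. Isolation stood above all other groups and NTHi below control, while control overlapped airlift and airlift overlapped NTHi. The log2 differences were -2.83 ± 0.26 for airlift against isolation, 0.84 ± 0.23 for control against airlift and -1.68 ± 0.28 for NTHi against control. Without experiment A the difference of control from airlift was 0.59 ± 0.26. These levels rest on 9 to 28 counts in an NTHi library and on 118 to 199 at isolation.

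Some reads may match both Chil3 and Chil4, and Chil4 had a small fraction of the Chil3 counts, so the Chil4 values are uncertain. The coding sequences were 95.3% identical over 1197 aligned bases, whereas every other pair of members was between 59.5% and 74.9% identical. Of the 50-base windows of the Chil4 coding sequence 18.5% occurred without a mismatch in Chil3, and of the 100-base windows 3.75% did. The number of Chil4 counts per 1000 Chil3 counts was not constant. It was 2.84 to 4.35 at isolation, 1.10 to 1.46 at airlift, 0.554 to 1.0 in control and 0.397 to 1.79 with NTHi. Isolation lay above every other library in this ratio, airlift lay above control, and NTHi overlapped both. How reads that match more than 1 gene were counted is not given in the sources used here.

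The promoters of this pair are shown because the likeness goes beyond the coding sequence. They are the same 300-base windows of RefSeq on GRCm38.p6, at chr3:106167515-106167814 for Chil3 and chr3:106219430-106219729 for Chil4, both on the minus strand and printed 5′ to 3′ of the gene. Capitals mark, from left to right, matches to STAT, then in Chil4 alone C/EBP, then the TATA box.
Chil3: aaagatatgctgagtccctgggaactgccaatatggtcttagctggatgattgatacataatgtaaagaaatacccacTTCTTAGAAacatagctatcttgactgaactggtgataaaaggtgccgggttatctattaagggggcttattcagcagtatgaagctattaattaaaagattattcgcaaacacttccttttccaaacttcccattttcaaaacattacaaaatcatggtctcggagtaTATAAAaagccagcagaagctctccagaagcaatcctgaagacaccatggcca
Chil4: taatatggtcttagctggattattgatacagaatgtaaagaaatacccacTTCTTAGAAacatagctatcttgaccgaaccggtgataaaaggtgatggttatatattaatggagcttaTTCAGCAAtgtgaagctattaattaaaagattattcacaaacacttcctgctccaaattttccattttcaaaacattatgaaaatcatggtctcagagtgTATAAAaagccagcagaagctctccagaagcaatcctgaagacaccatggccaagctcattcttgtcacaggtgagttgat
The windows were 92.6% identical over 271 aligned bases. The STAT match began 172 bases before the annotated start in Chil3 and 200 before it in Chil4, and the TATA match 3 and 31 bases before it. Among all promoters 8.30% held a STAT match, 10.8% a C/EBP match and 13.6% a TATA match, and none of the matches overlapped another. STAT proteins are the factors that cytokine receptors activate. No member held the STAT6 letters in its window, which 6.95% of promoters did. Chia1 held a TATA match and Chit1 an AP-1 match (7.81% of promoters).

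Of the 5 members 4 passed the filter on low counts in each comparison, all but Chit1, and the counts that follow are of these 4. Since the members were chosen with these levels known, the counts of calls are printed beside those of all genes and nothing is read from them. With NTHi against control 1 member was called higher, where 20.1% of all genes were, and 3 lower, where 20.4% were. In that comparison 3 members had groups that did not overlap, against 15.8% of all genes. At airlift against isolation 0 members were called higher (37.9% of all genes) and 4 lower (36.7%), and 4 did not overlap (66.9%). For control against airlift 3 were called higher (26.9%) and 1 lower (27.7%), and 3 did not overlap (28.3%). For NTHi against isolation 0 were called higher (39.0%) and 3 lower (38.5%), and 3 did not overlap (67.1%). Chit1, outside these counts, did not overlap between NTHi and isolation. The comparisons share groups: isolation, airlift, control and NTHi each stand in more than 1 of them or share their fit.

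**Figure D4:**
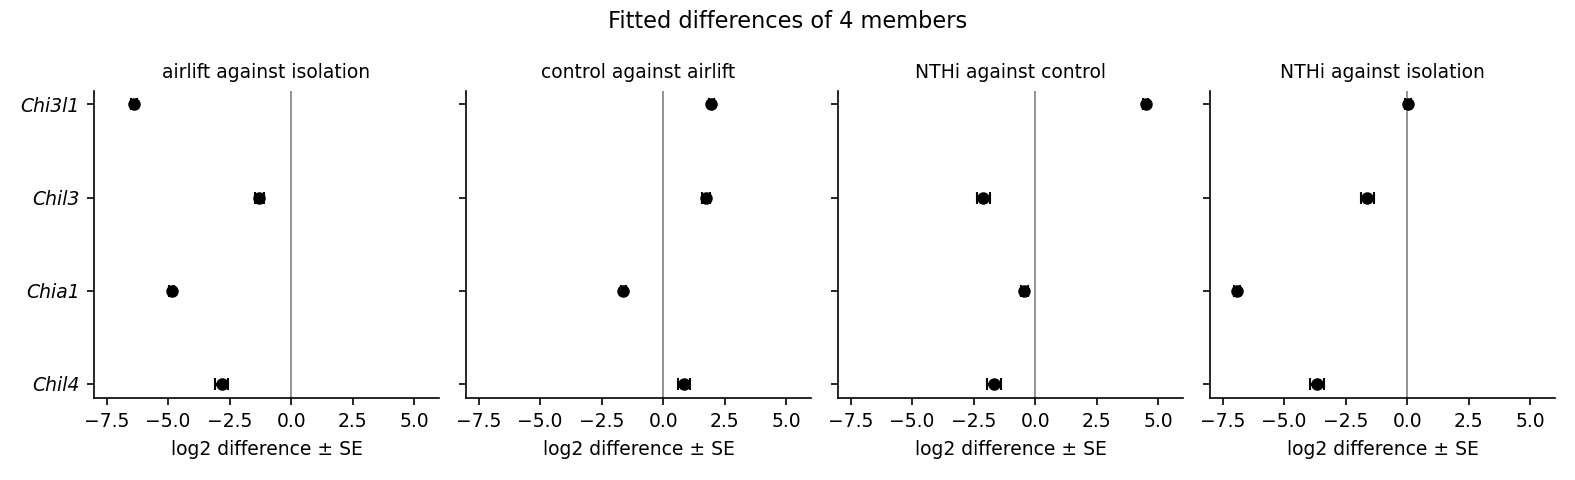
Fitted log2 differences (horizontal axis, points, with bars of 1 standard error) of the 4 members that passed the filter, in 4 comparisons; a value above 0 is higher in the group named first. Chi3l1 ranges from -6.40 at airlift against isolation to 4.49 with NTHi against control, and the 4 members are all below 0 at airlift against isolation.

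The other mouse genes of this enzyme family were measured at low or moderate levels. Chil5 and Chil6, neighbours of the members on chromosome 3, had between 0 and 36 counts in a library, and Chia2 was not analysed here. Chil6 had 26 and 36 counts in the NTHi libraries of experiment A and 10 and 15 in those of B, but 2, 5 and 5 in those of C, against 0 to 6 in the control libraries. It did not pass the filter in that comparison. Chid1, which binds sugars and lies in the lysosome, went from 14.2 ± 1.55 CPM (SD, n = 3) at isolation to 31.2 ± 4.56 CPM at airlift (SD, n = 6) and was then at 30.3 ± 2.91 and 28.5 ± 4.81 CPM in control and NTHi (SD, n = 7 each). Ctbs, the lysosomal chitobiase that trims N-acetylglucosamine from glycans, went from 7.66 ± 0.247 to 13.5 ± 0.590 CPM at airlift, and both rises were called. Ovgp1, a secreted glycoprotein of the oviduct, was called lower at airlift than at isolation (2.73 ± 0.0921 and 1.74 ± 0.446 CPM), a call that library totals alone, leaving out experiment C or leaving out its isolation library ended. Ovgp1 was also called lower in control than at airlift, but not without experiment A, at -0.54. With NTHi against control 0 of the 3 genes tested were called by edgeR or DESeq2, and 1, Chid1 at -0.10 ± 0.05, had an unadjusted p below 0.05. Library totals alone added the call of Chid1, at -0.16. Chil6 was called higher with NTHi when no filter on low counts was set (2.22 ± 0.55) and in a fit on all 23 libraries (2.33 ± 0.60), with the libraries of experiment C near the control level as given above.

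Genes that sense or handle chitin and its fragments rose together during untreated culture and split under NTHi. In day 4 control 9 of 9 tested genes were called higher than at airlift, with a median log2 difference of 0.51 where all genes had -0.021 and 26.9% of them were called higher. Clec7a, the receptor for fungal beta-glucan, was at 191.8 ± 40.9 CPM at airlift (SD, n = 6) and at 761.9 ± 210 CPM in control (SD, n = 7), and rose by 1.99 ± 0.18 on the log2 scale. Tlr2, a receptor of bacterial lipoproteins that also responds to chitin fragments, rose by 1.69 ± 0.15. Hexa, a subunit of the lysosomal hexosaminidase, rose by 0.56 ± 0.05, and Mrc1, the macrophage mannose receptor, by 1.07 ± 0.12. Mrc1 also stands on the list of macrophage markers, whose sums by group are given above; their part in the levels of these genes was not tested. With NTHi 2 of the 9 were called higher than in control and 4 lower, with a median of -0.36 where all genes had -0.00013 and 20.1% were called higher and 20.4% lower. Myd88, the adaptor of Toll-like receptors, rose by 0.36 ± 0.04 and Mgat5, a glycosyltransferase, by 0.23 ± 0.05, though Mgat5 was not called without experiment C. Mrc1 fell by 2.31 ± 0.23 and Card9, the adaptor below Clec7a, fell by 1.06 ± 0.21. At airlift 1 of the 9 was called higher than at isolation and 3 lower (37.9% and 36.7% of all genes). The first was Mgat5 at 0.16 ± 0.06, a call that 8 of 19 alternatives ended. Lower were Tlr2 (-2.67 ± 0.18), Mrc1 (-1.40 ± 0.15) and Myd88 (-1.01 ± 0.06), and scaling by library totals gave 5 calls of higher genes and 3 of lower ones.

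Among proteins reported to bind chitinase-like proteins, Il13ra2 stood out under NTHi. Il13ra2, a decoy receptor of interleukin 13 reported to bind Chi3l1, went from 0.451 ± 0.188 CPM in control to 40.5 ± 5.57 CPM with NTHi (SD, n = 7 each), a log2 change of 6.48 ± 0.16. Its control libraries ran from 0.198 to 0.747 CPM and its NTHi libraries from 33.8 to 49.4 CPM. Unlike Chi3l1 it was low at isolation, at 1.12 ± 0.362 CPM (SD, n = 3). Of the 7 genes tested 3 rose with NTHi and 1 fell, with a median of 0.085, where 20.1% of all genes rose and 20.4% fell. Cd44, a receptor of hyaluronan, rose by 0.77 ± 0.05 and Igfbp3, a binding protein of insulin-like growth factors, by 0.71 ± 0.11, while the galectin Lgals3 fell by 0.58 ± 0.15. At airlift against isolation Igfbp3 (4.28 ± 0.22), Lgals3bp (1.98 ± 0.10) and Lgals3 (0.83 ± 0.13) rose, and Cd44 (-1.39 ± 0.06) and Il13ra2 (-1.97 ± 0.37) fell. At day 4 control against airlift Cd44 (0.73 ± 0.05) and the proteoglycan Sdc1 (0.88 ± 0.08) rose, and Lgals3 (-0.58 ± 0.10) and Tmem219 (-0.36 ± 0.07), a reported partner of Il13ra2, fell.

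Genes of the type 2 cytokine axis, the arm of immunity in which Chil4 and Chia1 are known as markers, did not move as a block with NTHi. Of 16 tested genes 7 were called higher than in control and 4 lower, with a median of 0.16, where 20.1% and 20.4% of all genes were. Il4ra, the shared receptor chain of interleukins 4 and 13, rose by 0.51 ± 0.04, the mucin Muc5ac by 1.05 ± 0.14 and Spdef, a factor of goblet cells, by 0.84 ± 0.12. The chemokine Ccl24 fell by 2.02 ± 0.32, from 3.98 ± 1.71 to 0.980 ± 0.541 CPM (SD, n = 7 each). At airlift 11 of the 16 were called lower than at isolation and 4 higher, with a median of -0.80 where all genes had 0.0026 and 36.7% were lower and 37.9% higher; with library totals alone these were 7 and 4. The 5 goblet cell markers, of which Clca1, Muc5ac and Spdef stand on both lists, were all called lower at airlift as well, with sums of 333.8 to 602.2 CPM at isolation and 8.59 to 13.2 CPM at airlift, and so were the 4 leukocyte markers; their part in these values was not tested. Clca1, a product of goblet cells, was at 79.1 ± 13.5 CPM at isolation (SD, n = 3) and 0.173 ± 0.0745 CPM at airlift (SD, n = 6). Retnla went from 174.0 ± 22.3 to 2.41 ± 0.757 CPM and the alarmin Il33 from 177.7 ± 8.58 to 12.5 ± 1.62 CPM, while the arginase Arg1 went up from 5.56 ± 0.892 to 552.4 ± 38.3 CPM. In control against airlift 9 genes were called higher (26.9% of all genes were), with Muc5ac at 2.04 ± 0.19, Il33 at 1.73 ± 0.17 and Postn, a matrix protein, at 2.57 ± 0.32. Arg1 (-0.97 ± 0.13) and the chemokine Ccl17 (-0.52 ± 0.13) were the 2 called lower (27.7% of all genes). The goblet markers summed to 37.0 to 105.8 CPM in control, and all 5 were called higher than at airlift.

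Genes of the STAT3, C/EBP and NF-kB arms, signals known to act on Chi3l1, were mostly higher with NTHi. Of 16 tested genes 13 were called higher than in control and 0 lower, with a median of 0.58, where 20.1% and 20.4% of all genes were, and library totals alone gave 12 and 0. At an unadjusted p below 0.05 the count lower than in control was also 0, with edgeR's test and with DESeq2. Nfkbiz, a nuclear cofactor of NF-kB, went from 20.2 ± 1.71 to 128.5 ± 3.53 CPM and Cebpd from 32.7 ± 3.05 to 131.9 ± 11.5 CPM (SD, n = 7 each). Osmr, the receptor of oncostatin M, rose by 1.54 ± 0.06 and Nfkb1 by 0.72 ± 0.04. The 3 genes not called were Stat3 (0.062 ± 0.038), Cebpb (-0.035 ± 0.117) and Rela (0.057 ± 0.039). At airlift 14 of the 16 were called lower than at isolation, with a median of -1.22, where 36.7% of all genes were lower, and Osmr alone was called higher, by 0.35 ± 0.09; with library totals alone 11 were lower and 2 higher. Nfkbia fell by 2.19 ± 0.09, Nfkbiz by 2.50 ± 0.10, Socs3 by 1.72 ± 0.08 and Il6ra by 1.76 ± 0.09. With NTHi against isolation 9 were called lower (38.5% of all genes) and 3 higher (39.0%), with a median of -0.42. Those higher were Cebpd, Il1b and Osmr, and Chi3l1 differed by 0.04 ± 0.11 there. Library totals alone gave 7 higher and 6 lower in that comparison. In control against airlift 6 were called higher and 6 lower (26.9% and 27.7% of all genes), and the 2 directions held Il6 (2.01 ± 0.24) and Il1r1 (0.61 ± 0.08) on the one side and Il6ra (-0.96 ± 0.08) and Nfkbiz (-0.67 ± 0.09) on the other.

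The genes with the profile most like that of each member were found by the root mean square difference of log2(CPM + 0.5), each gene centred on its own mean, over the 23 libraries and among 13411 genes. This likeness is a description, and all profiles share the libraries and their scaling. Chi3l1 was nearest to Cxcl2 (0.64), Cxcl1 (0.81) and Lrg1 (0.95). Cxcl2 and Cxcl1 are chemokines of neutrophils, and Cxcl2 stood at 238.7 ± 59.3, 7.10 ± 1.12, 19.0 ± 5.66 and 250.8 ± 58.6 CPM at isolation, airlift, control and NTHi. Chil3 was nearest to Sla (0.36), Mertk (0.42) and Gpr171 (0.45), of which Mertk is a receptor by which macrophages take up dying cells, at 53.5 ± 3.14, 23.9 ± 1.71, 46.9 ± 10.3 and 15.0 ± 4.69 CPM in the same order. Chia1 was nearest to Mgl2 (0.34), Il1r2 (0.39) and Cd207 (0.42). Mgl2 and Cd207 are lectins of dendritic cells and macrophages. Cd207 stood at 59.4 ± 6.06, 0.720 ± 0.258, 0.175 ± 0.154 and 0.00755 ± 0.0200 CPM in the same order. Mgl2 was at 0.258 CPM in control and 0.00373 CPM with NTHi, where Chia1 was at 3.32 and 2.45 CPM. Such levels lie below the 0.5 CPM added before the log2, which narrows their differences. Chil4 was nearest to Syne3 (0.32), Pcx (0.32) and Irag2 (0.33). With a pseudocount of 1 in place of 0.5, 8 of these 12 genes stayed among the nearest, and Mgl2, Il1r2, Gpr171 and Irag2 did not. Chit1 was too low to be compared.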

How the data were processed

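Gene counts as deposited by the authors were used, in 3 tables (1 per experiment) of whole, unnormalised numbers. STAR, DESeq2 and the build GRCm39 are named, without versions, per the submitters' processing notes; no source used here gives the counting tool, annotation or strand setting. Overlapping or antisense genes can therefore share counts. Each table held 41098 lines, of which 25 broken lines were left out (6 genes, none of them a member). Among counts below 20, 69.3% to 74.9% were even, so both reads of a pair may have been counted. Replicates within a group and experiment differed by more than sampling noise (chi-square per degree of freedom of 2.87 or more), and each counted once. The floor of 3 counts covers counting error only, while the standard errors also take in the spread between libraries.

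Groups came from the labels. edgeR 4.0.16 in R 4.3.3 kept genes by filterByExpr (minimum count 10), scaled by TMM, and fitted a quasi-likelihood F-test with group and experiment as terms: 14 day 4 libraries for NTHi against control (16337 genes), 16 for the untreated groups (18302) and all 23 for NTHi against isolation (18586). A standard error is the size of the log2 difference divided by the square root of F. The script was tested on simulated data. Chit1 had too few counts to be fitted. Differences within an experiment are of means of log2(CPM + 0.5), which understates low genes.

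The members and the gene lists were chosen with earlier results of these data known. Genes named from a list are up to 4 with the smallest p among those called, and any that make up a count of 3 or fewer. For each member with at least 1 CPM in a group the 3 nearest genes were named among those with a mean of at least 1 CPM. Sequences came from RefSeq promoters (GRCm38.p6) and GENCODE M21 transcripts; all 5 members matched, Chi3l1 by its synonym. Alignments used Biopython 1.88. Alternatives were other scaling, DESeq2 1.42.0, no filter, no experiment term, a fit on other libraries, a replicate block and leaving out experiments or libraries; counts divided by 2, and leaving out the 2 libraries farthest from their groups, were added after seeing the data.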

Additional observations from a re-analysis of the deposited data

Results flagged for a closer look

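Chil4 in day 4 control had 1 library apart from the others of its group. Replicate 1 of experiment A stood at 2.68 CPM, on 105 counts, while the other 6 control libraries ran from 0.921 to 1.41 CPM. The gap to its nearest neighbour exceeded the limit of Dixon's test for 7 libraries, a limit that chance passes in about 1 in 20 groups; 15 sets of libraries (a member in a group) were looked at and this 1 passed. The same library had the highest Chil3 level of its group (2683 CPM), and its Chil4 counts per 1000 Chil3 counts were also the highest in control, at 1.0 against 0.554 to 0.745.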

How the results depend on the processing

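Of 364 values recomputed for the members, 349 moved by less than the spread between replicates and 15 moved further. Those on the other side of 0 were 5, each of the Chi3l1 difference between NTHi and isolation, which ran from -0.02 to 0.45. Some calls of members changed. Chia1 was not called lower with NTHi against control without experiment B or without experiment C. Chil4 was not called higher in control than at airlift without experiment A. Chi3l1 was called higher with NTHi than at isolation when library totals alone were used. The 91 recomputed counts of called genes stayed within 1.5 times. Scaling by library totals alone moved the median of all genes to 0.49 at airlift against isolation and to 0.42 for NTHi against isolation, and the members with it. Airlift against isolation became -4.37 for Chia1, -5.91 for Chi3l1, -0.80 for Chil3 and -2.34 for Chil4, and NTHi against isolation became -6.50 for Chia1, 0.45 for Chi3l1 and -3.26 for Chil4. That scaling also changed the split of called genes, to 2282 higher and 4416 lower with NTHi against control (3281 and 3338 with TMM), 10131 and 4223 at airlift against isolation (6928 and 6718) and 9770 and 5045 for NTHi against isolation (7242 and 7161). Without experiment A the NTHi difference of Chil4 was -1.34. Without experiment B, airlift against isolation was -1.53 for Chil3 and -3.25 for Chil4, control against airlift was 1.17 for Chil4, and NTHi against isolation was -4.07 for Chil4; without experiment C, airlift against isolation was -2.45 for Chil4. Leaving out 1 library at a time gave -3.05 to -2.48 for Chil4 at airlift against isolation and -3.93 to -3.32 for NTHi against isolation; the cause was not tested.

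Of the values for listed genes and lists 2344 kept their call or count, 17 lost a call, 2 gained one and 5 counts moved by over 1.5 times, none of these when the 2 libraries farthest from their groups were left out. Myd88 was the 1 that reversed, at 0.14 with library totals alone for NTHi against isolation. A different NTHi effect between experiments was called for 0 of 16337 genes by edgeR, with 675 at an unadjusted p below 0.05, and for 5 by DESeq2's likelihood ratio test. With a replicate block 5982 genes were called for NTHi against control (6619 without) and 8739 for control against airlift (9982 without), and no member's difference moved beyond the spread between replicates. Libraries with the same number correlated between -0.628 and 0.216, and in experiment C numbers 1 and 3 went against their partners. Control replicate 1 and NTHi replicate 3 of that experiment were the libraries farthest from their groups. The correlations therefore cannot tell whether libraries with the same number share more than the number. Chit1 and Chil4 are limited by depth, at 0 to 14 and 9 to 199 counts in a library.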
